A study of Mus musculus with 4 samples.

Results

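The EGF family ligands and their ErbB receptors were examined in skin of BLM-treated WT and GSDMD KO mice. The members were given by name: the 7 ligand genes Areg, Epgn, Tgfa, Hbegf, Btc, Ereg and Nrg1, and the 3 receptor genes Egfr, Erbb2 and Erbb3, 10 of the 24441 genes in the deposited table. RNA came from 2 WT libraries (genotype wild type) and 2 KO libraries (GSDMD-/-), all from lesional skin of female C57BL/6 mice aged 8 weeks on the labels. Every animal, WT as well as KO, had received subcutaneous bleomycin (BLM), an antibiotic that damages DNA and is used to bring on skin fibrosis, every other day over 28 days, and saline-treated skin was not analysed here. The knockout line had been made with Cas9 mRNA and a guide RNA injected into C57BL/6 zygotes. The labels number the libraries without saying that each came from its own mouse, so p-values measure the spread between these libraries, which may be technical.

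EGF family ligands are made as membrane-anchored precursors and are cut loose by cell surface proteases of the ADAM family. They bind receptors of the ErbB family, which then pair, phosphorylate each other and signal through Ras, ERK and PI3-kinase. EGFR binds AREG, EPGN, TGFA, HBEGF, BTC and EREG, whereas NRG1 binds ErbB3 and ErbB4. ErbB2 has no known soluble ligand and is a favoured partner of the other receptors, and ErbB3 has a weak kinase and needs a partner to signal. In skin, keratinocytes both make and answer these ligands, and the system is known for its part in epidermal growth, wound closure and the hair follicle.

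The promoters of 6 of the 10 members were matched by symbol in the RefSeq table, which is on build GRCm38.p6 and not on the mm9 build of the deposited loci. The 250 bases before the start site are shown for the receptor and ligand genes on which the comparison turns, Erbb2, Egfr and Epgn, and for Areg, whose window held the most kinds of motif. All 4 lie on the plus strand. Capitals mark matches, on either strand, to the cAMP response element TGACGTCA, the AP-1 element TGANTCA, the GC box GGGCGG or the TATA box TATAAA, and no matches overlapped.
Erbb2, chr11:98412234-98412483: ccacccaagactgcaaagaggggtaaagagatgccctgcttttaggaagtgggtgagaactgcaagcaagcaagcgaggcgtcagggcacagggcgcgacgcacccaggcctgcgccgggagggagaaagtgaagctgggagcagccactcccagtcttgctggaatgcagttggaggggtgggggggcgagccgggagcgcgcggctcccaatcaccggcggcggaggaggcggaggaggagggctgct
Egfr, chr11:16751953-16752202: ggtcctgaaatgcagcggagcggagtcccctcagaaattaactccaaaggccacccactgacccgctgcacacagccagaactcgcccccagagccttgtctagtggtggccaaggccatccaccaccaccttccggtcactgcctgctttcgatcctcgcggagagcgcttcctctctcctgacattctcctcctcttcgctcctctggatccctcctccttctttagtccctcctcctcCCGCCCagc
Epgn, chr5:91027267-91027516: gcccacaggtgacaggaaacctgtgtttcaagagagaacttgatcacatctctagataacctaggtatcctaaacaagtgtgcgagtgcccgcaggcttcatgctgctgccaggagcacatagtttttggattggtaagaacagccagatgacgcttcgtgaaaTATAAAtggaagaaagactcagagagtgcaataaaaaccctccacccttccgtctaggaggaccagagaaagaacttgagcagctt
Areg, chr5:91139349-91139598: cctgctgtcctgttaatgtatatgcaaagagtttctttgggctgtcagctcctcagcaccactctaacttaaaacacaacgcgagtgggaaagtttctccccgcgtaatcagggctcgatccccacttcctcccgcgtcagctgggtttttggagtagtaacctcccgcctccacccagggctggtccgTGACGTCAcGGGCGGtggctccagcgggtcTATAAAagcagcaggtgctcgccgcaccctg
The Areg window held a cAMP response element starting at position -61, a GC box at -52 and a TATA box at -31, counted from the start site. Such an element was found in 1.55% of the 32851 RefSeq promoter windows of this length, a GC box in 32.7% and the TATA letters in 12.4%. Egfr had a GC box at -9, on the reverse strand, Epgn had the TATA letters at -86, and Erbb2 had none of the 4 motifs. The AP-1 letters, present in 6.75% of all windows, were in none of the 4 sequences. These are matches of letters only.

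The deposited values are FPKM, fragments scaled by transcript length and by the size of the library, so levels can be compared between genes per length. On a transcript of 1 kb, 1 fragment added about 0.0574 FPKM in WT replicate 1, 0.0704 in WT replicate 2, 0.0728 in KO replicate 1 and 0.0783 in KO replicate 2, so WT replicate 1 was the deepest library. Gsdmd, the targeted gene, was low in both KO libraries, at 3.53 FPKM in replicate 1 and 2.26 in replicate 2, against 14.0 and 18.2 FPKM in the WT replicates, and values are given in replicate order throughout, with WT 1, WT 2, KO 1 and KO 2 for the libraries. Tests used limma on log2(FPKM + 1), a scale that understates changes of low genes, over the 13027 genes that reached 1 FPKM in 2 or more libraries. With Benjamini-Hochberg adjustment, 0 genes (0.0%) passed an adjusted p under 0.05 with an absolute log2 fold change above 1, while 2230 genes had an unadjusted p under 0.05. This count depended on the KO libraries, as 2058 genes (15.8%) passed without KO replicate 1 and 43 (0.33%) without KO replicate 2, each time with a lone KO library assumed to vary like the WT group. The median log2 fold change over all tested genes was 0.11, and it was -0.01 with median-ratio scaling. KO replicate 2 stood apart from the other libraries, at 75.4 on a first principal component that held 74.1% of the variance, against -53.9 to 6.17. In this library the summed fibroblast markers were at 24.9 FPKM, against 180.1 to 422.0 in the others, and 4 Y-linked genes were above 0 although the mice are described as female. KO replicate 1 had the highest summed hair follicle markers, 385.8 FPKM against 1.66 to 13.2.

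In 7 of the 10 members both KO libraries lay above both WT libraries: the 3 receptors, Erbb2, Egfr and Erbb3, and the ligands Epgn, Ereg, Tgfa and Areg. Hbegf was slightly lower in both KO libraries, and Btc and Nrg1 overlapped between the genotypes. None of the members passed the adjusted threshold in limma. Rescaling the libraries lowered the count of 7 to 6, as Areg then overlapped. Dropping KO replicate 1 gave 8 and dropping KO replicate 2 gave 7. Leaving out a library can only keep or raise this count, so neither value is a check on it. The shares of genes given next are for the full set of libraries without rescaling. An order with both KO libraries on top was common in these data, at 23.2% of all genes in the table and 35.3% of tested genes, and the opposite order at 15.5% and 20.5%. With an unadjusted p under 0.05, Erbb2 was higher in KO, as were 10.9% of tested genes, and 0 members were lower, as were 6.22%. Epgn also had an unadjusted p under 0.05, but it had entered the test only through the KO libraries and is not counted against that share. Basal keratinocyte markers also stood higher in both KO libraries, by 2.26 times on their summed level, and this is set beside the members further on.

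**Figure D1:**
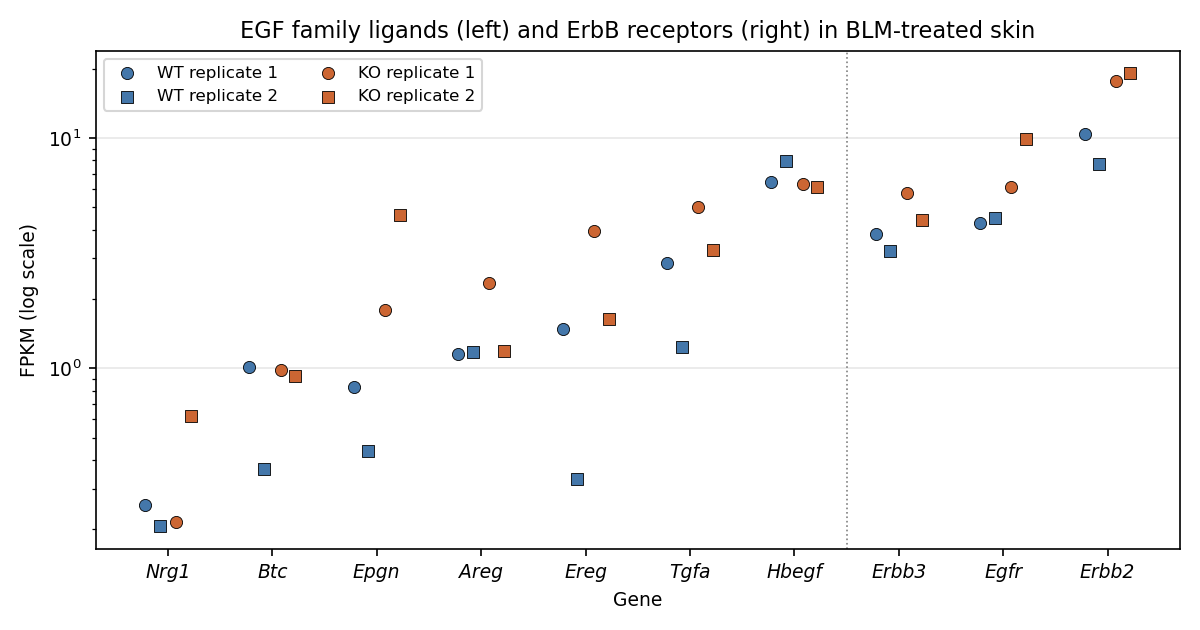
FPKM on a log scale of the 7 ligands (left of the dotted line) and 3 receptors in each of the 4 libraries, with WT in blue and KO in orange. Erbb2 is the highest member in 3 of the 4 libraries, at 10.5 to 19.1 FPKM there, and both of its KO points lie well above both WT points, whereas the Hbegf points lie close together between 6.14 and 7.97 FPKM.

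The order of the levels was much alike in the 4 libraries. In WT skin Erbb2 led with a mean of 9.09 ± 1.94 FPKM (SD, n = 2 here and below), followed by Hbegf at 7.22 ± 1.07, and these neighbours did not differ beyond their spread, since WT replicate 2 had more Hbegf. Egfr at 4.39 ± 0.171 and Erbb3 at 3.54 ± 0.440 FPKM came next in both WT libraries. Tgfa (2.05 ± 1.15), Areg (1.16 ± 0.0175), Ereg (0.907 ± 0.817), Btc (0.688 ± 0.458) and Epgn (0.633 ± 0.278) followed. In each WT library Tgfa was above the other 4 of these and Areg was above Btc and Epgn, while Ereg, Btc and Epgn overlapped and did not differ beyond their spread. Nrg1 was last at 0.230 ± 0.0339 FPKM. In KO skin Epgn had rank 8 in replicate 1 and rank 4 in replicate 2, the widest gap of any member between those libraries.

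Erbb2, the receptor without a known soluble ligand, is placed by mm9 on chromosome 11, from 98273798 to 98299030, and its longest coding transcript has 27 exons. WT replicate 1 was at 10.5 FPKM, WT replicate 2 at 7.72, KO replicate 1 at 17.7 and KO replicate 2 at 19.1 FPKM. The KO libraries lay close together and the lower of them was well above the higher WT library. The mean was 2.03 times higher in KO, 18.4 ± 0.977 FPKM against the WT mean given above (SD, n = 2). On the log2 scale the difference was 0.96 (standard error 0.26, 95% interval 0.30 to 1.62), with an adjusted p of 0.248 by limma, which did not pass. Leaving out 1 library at a time gave log2 fold changes from 0.76 to 1.15. Erbb2 shares 9 bases of exon with 1810046J19Rik on the opposite strand, and the use of strand in the counting is not given in the sources used here.

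Egfr, the receptor of most of the ligands, lies on chromosome 11 from 16652206 to 16813910, and its longest coding transcript has 28 exons. WT replicates 1 and 2 had 4.27 and 4.51 FPKM, and KO replicates 1 and 2 had 6.14 and 9.88 FPKM. The WT libraries were almost level and KO replicate 2 was the highest. The log2 fold change was 0.71 (standard error 0.30, 95% interval -0.05 to 1.47, adjusted p = 0.306 by limma). Without KO replicate 2 it was 0.41, and without KO replicate 1 it was 1.01.

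Erbb3, the partner receptor that binds NRG1, lies on chromosome 10 from 128006424 to 128026557. It had 3.85 (WT 1), 3.22 (WT 2), 5.80 (KO 1) and 4.43 FPKM (KO 2), with KO replicate 1 on top and the groups apart. Its log2 fold change was 0.42 (standard error 0.26, 95% interval -0.24 to 1.09, adjusted p = 0.419 by limma), an interval that includes 0, and it was 0.26 without KO replicate 1. Schwann cells and melanocytes are known to use ErbB3, and KO replicate 1 was the highest library for their markers as it was for Erbb3. The summed Schwann cell list was at 181.7 and 151.1 in WT, compared with 206.5 and 48.2 FPKM in KO, and the melanocyte list at 8.91 and 5.23 against 78.5 and 6.29 FPKM. In the Schwann list 1 of 6 markers had both KO libraries on top, and in the melanocyte list 2 of 5. Their part in the Erbb3 values was not tested. Summed over the 3 receptors, the level was 18.6 and 15.4 FPKM in WT against 29.7 and 33.4 in KO.

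Epgn, Ereg, Areg and Btc lie next to each other on chromosome 5 of mm9, within 375.5 kb from 91456543 to 91832020, with Gm19619 as the only other gene of the table between them. All of them were low, and a value rested on about 10.9 to 223.3 fragments. The neighbours did not share a pattern across libraries, for Epgn was highest in KO replicate 2, Ereg and Areg in KO replicate 1 and Btc in WT replicate 1.

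Epgn encodes epigen, an EGFR ligand of epithelia, on chromosome 5 from 91456543 to 91464238. It had 0.830 (WT 1), 0.436 (WT 2), 1.79 (KO 1) and 4.64 FPKM (KO 2). Both WT libraries were under 1 FPKM, so the gene reached the test only through the KO libraries, and KO replicate 2 was 2.60 times KO replicate 1. These values correspond to about 25.4 and 10.9 fragments in WT and about 43.2 and 104.4 in KO. The mean was 5.08 times higher in KO, and the log2 fold change was 1.29 (standard error 0.41, 95% interval 0.25 to 2.33, adjusted p = 0.255 by limma), the largest among the members tested. Epgn was the one member whose call changed with a library: without KO replicate 1, when 15.8% of all tested genes passed, so did Epgn, at 1.80 with an adjusted p of 0.0117 by limma and with KO replicate 2 the one library over 1 FPKM, and without KO replicate 2 it was 0.78, with an adjusted p of 0.383.

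Ereg encodes epiregulin, a ligand of EGFR and ErbB4, on chromosome 5 from 91503643 to 91522675. Its values were 1.48 and 0.329 in WT, compared with 3.93 and 1.64 FPKM in KO. The higher WT and the lower KO library were close, and the WT libraries themselves differed 4.51 times. The log2 fold change of 0.99 had a standard error of 0.46 (adjusted p = 0.337 by limma). It was 0.54 without WT replicate 2 as well as without KO replicate 1, and 1.44 without WT replicate 1 or KO replicate 2.

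Areg encodes amphiregulin, an EGFR ligand made by keratinocytes and immune cells, on chromosome 5 from 91568625 to 91577458. Its WT libraries were level at 1.15 and 1.17 FPKM, KO replicate 2 was at 1.19 and KO replicate 1 alone was higher, at 2.35 FPKM. The log2 fold change came to 0.33 (standard error 0.30, adjusted p = 0.565 by limma), and 0.02 without KO replicate 1. The groups overlapped once the libraries were rescaled, with 1.29 in WT replicate 2 against 1.11 in KO replicate 2 under median-ratio factors.

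Btc encodes betacellulin, on chromosome 5 from 91786287 to 91832020, and had 1.01 and 0.365 FPKM in WT against 0.987 and 0.928 in KO. WT replicate 1 was the highest and WT replicate 2 the lowest, and the gene did not enter the test. In WT replicate 2 the value rests on about 14.5 fragments.

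Tgfa encodes TGF-alpha, an EGFR ligand made by keratinocytes, and lies on chromosome 6 from 86145221 to 86225737. It had 2.86 (WT 1), 1.24 (WT 2), 5.02 (KO 1) and 3.25 FPKM (KO 2). The gap between the lower KO and the higher WT library was smaller than the spread within either group. The log2 fold change was 0.78 (standard error 0.37, 95% interval -0.17 to 1.74, adjusted p = 0.341 by limma) and was 0.39 without WT replicate 2.

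Hbegf encodes the heparin-binding ligand of EGFR and ErbB4, and lies on chromosome 18 from 36664581 to 36675459. It was the highest of the 7 ligands in every library, with 6.46 and 7.97 in WT, compared with 6.29 and 6.14 FPKM in KO. The highest KO and the lowest WT library were nearly level. Its log2 fold change was -0.18 (standard error 0.24, 95% interval -0.80 to 0.44, adjusted p = 0.695 by limma). It was -0.31 without WT replicate 1 and also with median-ratio scaling, and -0.05 without WT replicate 2. Macrophages are also known to make Hbegf, and their markers were at 1883 and 1815 FPKM in WT against 753.0 and 80.9 in KO, with 6 of 8 lower in both KO libraries and none at 0, and their part in the Hbegf values was not tested.

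Nrg1, the ligand of ErbB3 and ErbB4, was the lowest member in all 4 libraries. It lies on chromosome 8 from 32928500 to 33028675 and shares 100 bases of exon with Gm17443 on the opposite strand. It had 0.254 (WT 1), 0.206 (WT 2), 0.215 (KO 1) and 0.620 FPKM (KO 2), which correspond to about 9.30 and 6.15 and to about 6.22 and 16.6 fragments. It was below the filter, and the fit without a filter gave a log2 fold change of 0.19 (standard error 0.16, 95% interval -0.25 to 0.63, adjusted p = 0.598 by limma). The 7 ligands together summed to 14.1 and 11.7 FPKM in WT and to 20.6 and 18.4 FPKM in KO.

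Of the 5 family genes that are no members, Egf and Nrg4 were tested and Nrg2, Nrg3 and Erbb4 were too low. Egf, the founding ligand, on chromosome 3 from 129380495 to 129458240, ran against most members. It had 13.2 and 13.8 in WT, compared with 7.76 and 5.90 FPKM in KO, and the groups were well apart. Its log2 fold change was -0.90 (standard error 0.25, 95% interval -1.54 to -0.26, adjusted p = 0.248 by limma), and ranged from -1.07 to -0.73 when 1 library was left out. Skeletal muscle markers were also lower in KO, with a summed level of 19422 and 17541 FPKM in WT against 11804 and 11701 in KO and 3 of 6 markers below in both KO libraries, and their part in the Egf values was not tested. Nrg4, a neuregulin that binds ErbB4, varied within both groups, at 2.99 (WT 1), 10.9 (WT 2), 3.17 (KO 1) and 7.66 FPKM (KO 2) (log2 fold change -0.20, standard error 0.64, adjusted p = 0.878 by limma), and its sign turned without WT replicate 2 (0.59) or without KO replicate 1 (0.33). Nrg4 exons overlap Fbxo22 and Gm15625 on the opposite strand. Nrg2, a neuregulin like Nrg1, ran with most members, at 0.424 and 0.223 in WT, compared with 0.902 and 1.25 FPKM in KO, where both KO libraries were on top and the mean was 3.33 times higher. It reached 1 FPKM in KO replicate 2 only, and the fit without a filter gave a log2 fold change of 0.65 (95% interval 0.22 to 1.08, unadjusted p = 0.0136 and adjusted p = 0.375 by limma). Erbb4 stayed at or under 0.0364 FPKM, and Nrg3 was listed at 0 in 3 libraries.

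**Figure D2:**
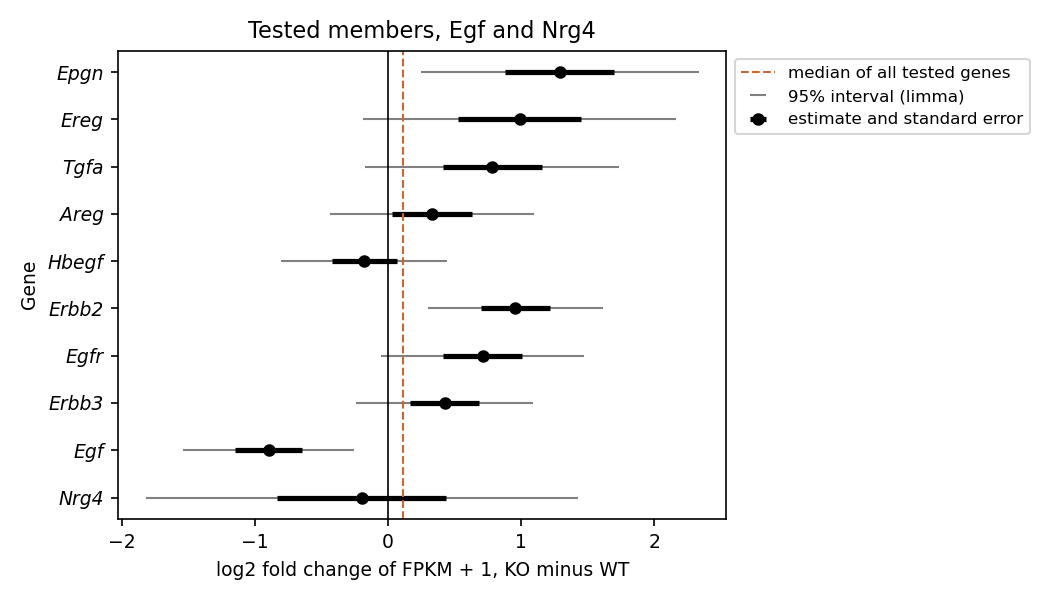
log2 fold change of FPKM + 1, KO minus WT, of the 8 tested members, Egf and Nrg4, with the standard error (thick) and the 95% interval of limma (thin), beside the median of all tested genes (0.11, dashed). The intervals of Epgn and Erbb2 lie above 0 and that of Egf lies below 0, and the other 7 include 0. Epgn had entered the test only through the KO libraries.

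In bulk skin, more cells of a type and more RNA per cell cannot be told apart. Of the 7 basal keratinocyte markers, all 7 were higher in both KO libraries, with a summed level of 2278 and 2188 FPKM in WT against 4828 and 5284 in KO. Krt14, of the keratin pair of the basal layer, was at 1293 (WT 1), 1215 (WT 2), 2689 (KO 1) and 2735 FPKM (KO 2), and its partner Krt5 at 764.1 and 765.4 in WT, compared with 1728 and 1664 FPKM in KO. Suprabasal markers did not follow, at 2836 and 1582 FPKM in WT against 6069 and 1849 in KO, and 1 of 7 was above in both KO libraries. Wound-induced keratins were at 1182 (WT 1), 466.8 (WT 2), 2073 (KO 1) and 872.5 FPKM (KO 2), with 1 of 4 above in both. Sebocyte markers were at 44.9 and 38.3 in WT, compared with 222.4 and 1211 FPKM in KO, with 4 of 6 above in both and 1 below. Hair follicle markers were also higher in both KO libraries, in 11 of 15 genes, at 9.69 (WT 1), 1.66 (WT 2), 385.8 (KO 1) and 13.2 FPKM (KO 2), and several of these keratins were listed at 0 in WT replicate 2. Adipocyte markers varied within both groups, at 1753 (WT 1), 4798 (WT 2), 2221 (KO 1) and 208.1 FPKM (KO 2), with 1 of 5 below in both KO libraries. The part of these cell types in the members' values was not tested. The 6 cell division markers were all higher in both KO libraries, at 27.3 and 12.8 FPKM in WT against 47.8 and 82.4 in KO.

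**Figure D3:**
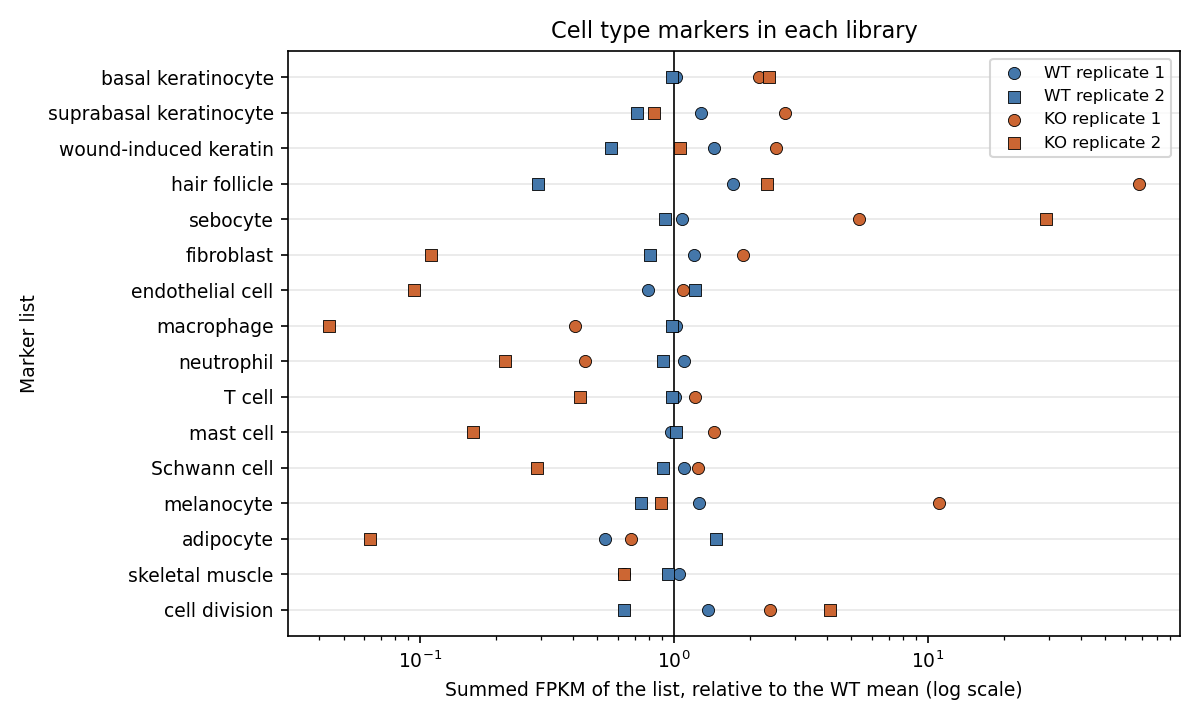
Summed FPKM of each marker list in each library, relative to the mean of the WT libraries, on a log scale. Both KO libraries lie to the right of both WT libraries for basal keratinocyte, hair follicle, sebocyte and cell division markers. They lie to the left of both for macrophage, neutrophil and skeletal muscle markers. For wound-induced keratins (right of the WT mean) and adipocyte markers (left of it) the genotypes overlap. KO replicate 2 alone is far to the left for fibroblast, endothelial, mast cell and Schwann cell markers, and less far for T cell markers.

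The members were also set against the basal keratinocyte markers, as FPKM per 1000 FPKM of the summed list. Since that sum was 2.26 times higher in KO, this scale lowers every gene in KO by about as much, and it shows only which members stood higher by more than these markers did. On it both KO libraries were on top in 2.43% of all genes in the table and 2.71% of tested genes, and below in 53.7% and 80.1%, so a lost order is no result about the members. Of the 10 members 1, Epgn, had both KO libraries on top and 4 had both below. Epgn was at 0.364 and 0.199 in WT and 0.370 and 0.879 in KO, where KO replicate 1 was barely above WT replicate 1. Nrg2, which is no member, kept that order as well, with 0.187 in KO replicate 1 just above 0.186 in WT replicate 1. Erbb2 overlapped, at 4.59 and 3.53 in WT and 3.67 and 3.62 in KO. Hbegf was lower in both KO libraries, at 2.84 and 3.64 in WT and 1.30 and 1.16 in KO. Erbb3, at 1.69 and 1.47 against 1.20 and 0.838, and Areg, at 0.505 and 0.537 against 0.487 and 0.226, also lay below in both, as did Egfr, by a margin in KO replicate 2 that rounding hides. This scale was chosen after the data had been seen and carries no test.

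**Figure D4:**
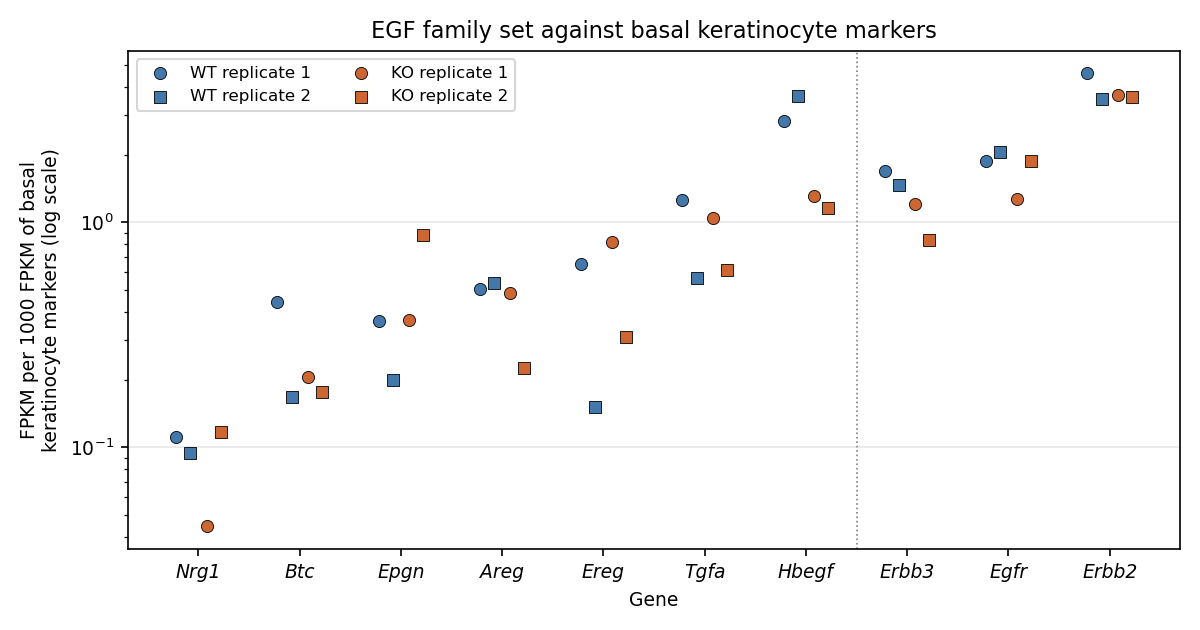
The same 10 genes as FPKM per 1000 FPKM of the 7 summed basal keratinocyte markers, on a log scale. The Erbb2 points of both groups lie between 3.53 and 4.59, both KO points of Hbegf lie below both WT points, and Epgn alone has both KO points on top.

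The proteases that release the ligands, with the carriers that bring ADAM17 to the surface, made up a list of 9 genes, of which 8 were tested and 0 passed. In 3 of the 8 both KO libraries were on top and in 2 both were below, close to the 35.3% and 20.5% of all tested genes, and the median log2 fold change was 0.18. Adam8, a metalloprotease best known from leukocytes, had 17.9 (WT 1), 19.9 (WT 2), 6.06 (KO 1) and 3.43 FPKM (KO 2) (log2 fold change -1.83, standard error 0.31, adjusted p = 0.248 by limma). Macrophage markers were lower as well, in 6 of 8 genes in both KO libraries, with the sums given beside Hbegf, as were neutrophil markers in 5 of 6, at 760.6 and 625.3 against 308.4 and 149.1 FPKM, with Ly6g listed at 0 in both KO libraries. Their part in the Adam8 values was not tested. Of the 4 libraries, leaving out KO replicate 1 alone made Adam8 pass, with 15.8% of all tested genes, at -2.17 with an adjusted p of 0.0052 by limma. Rhbdf2, the iRhom carrier of ADAM17, had 12.6 and 12.4 in WT, compared with 17.3 and 20.3 FPKM in KO (log2 fold change 0.55, standard error 0.23, adjusted p = 0.309 by limma). Adam17, the main sheddase of several of these ligands, which was named after its values were seen, had 11.5 and 10.7 FPKM in WT against 12.8 and 14.0 in KO. Adam15 was the highest of the list on average, though Rhbdf1 was above it in both KO libraries, and KO replicate 2 was its lowest library, with 24.9 (WT 1), 35.5 (WT 2), 25.0 (KO 1) and 11.8 FPKM (KO 2).

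Among the 29 genes that carry ErbB signals inside the cell, all 29 were tested and 0 passed. Their median log2 fold change was 0.10, next to 0.11 over all tested genes. In 10 both KO libraries were on top and in 8 both were below, where 35.3% and 20.5% of all tested genes were. Src, a tyrosine kinase that works with EGFR, had 4.03 and 4.24 in WT, compared with 6.98 and 7.54 FPKM in KO (log2 fold change 0.69, standard error 0.23, adjusted p = 0.264 by limma). Gab2, a docking protein prominent in blood cells, had 4.19 and 4.91 FPKM in WT against 2.74 and 1.64 in KO (log2 fold change -0.82, standard error 0.29, adjusted p = 0.271 by limma), the opposite order. Mapk3, an ERK kinase and the highest of the list on average, differed less than its spread, with 66.9 (WT 1), 79.4 (WT 2), 93.4 (KO 1) and 65.1 FPKM (KO 2). The Mapk3 log2 fold change of 0.10 turned to -0.05 with median-ratio scaling.

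Of 21 genes that limit ErbB or ERK signals, 20 were tested and 0 passed, with a median log2 fold change of 0.37. In 10 of the 20 both KO libraries were on top and in 0 both were below, beside 35.3% and 20.5% of all tested genes. At an unadjusted p under 0.05 with a log2 fold change beyond 1 in size, 3 were higher and 0 lower, where 6.16% and 4.14% of tested genes were. These were Cblc, an epithelial ubiquitin ligase of the CBL family, Spred1, an inhibitor of Ras and Raf signalling, and Lrig3, of the LRIG family of membrane proteins. Cblc had 3.34 and 2.47 in WT, compared with 8.16 and 6.37 FPKM in KO (log2 fold change 1.08, standard error 0.27, adjusted p = 0.248 by limma). Spred1 had 4.67 and 2.28 FPKM in WT against 6.20 and 10.3 in KO, and Lrig3 had 3.36 (WT 1), 3.03 (WT 2), 5.37 (KO 1) and 10.5 FPKM (KO 2), and in both genes KO replicate 2 was the highest library. Without KO replicate 2 Spred1 was at 0.74 and Lrig3 at 0.60 on the log2 scale, and Spred1 was at 0.67 without WT replicate 2. Without KO replicate 1, when 15.8% of all tested genes passed in limma, 3 of the 20 did so here, a share close to that of all genes: Lrig3 at 1.45 (adjusted p = 0.0232) and, named after their values were seen, Lrig1 at 1.35 (adjusted p = 0.0406) and Socs5 at 1.31 (adjusted p = 0.0352). Ptpn1, a tyrosine phosphatase and the highest of the list on average, had 18.4 and 21.8 in WT, compared with 19.3 and 15.8 FPKM in KO.

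The 16 genes that ERK signals are known to induce were all tested and 0 passed. They lay on both sides of 0, with log2 fold changes from -3.05 to 2.33 and a median of 0.15. In 7 of the 16 both KO libraries were on top and in 3 both were below, beside 35.3% and 20.5% of all tested genes. At an unadjusted p under 0.05 and a log2 fold change beyond 1 in size, 4 of the 16 were higher and 2 lower, where 6.16% and 4.14% of tested genes were. Etv4, an ETS factor, had 4.14 and 2.73 FPKM in WT against 12.6 and 15.6 in KO (log2 fold change 1.78, standard error 0.29, adjusted p = 0.248 by limma). Egr3, an early growth response factor, had 6.77 (WT 1), 1.82 (WT 2), 17.2 (KO 1) and 29.3 FPKM (KO 2) (log2 fold change 2.33, standard error 0.56, adjusted p = 0.248 by limma). Egr2, Egr1, Myc and Fos were named after their values were seen. Egr2 was at 11.0 and 6.18 in WT, compared with 18.7 and 36.9 FPKM in KO, Egr1 at 16.0 and 15.4 against 24.2 and 31.8 FPKM, and Myc at 9.21 and 8.54 against 13.5 and 30.9 FPKM. Fos ran the other way, at 16.5 and 28.7 FPKM in WT against 8.23 and 10.4 in KO, so the immediate early genes of the list did not share a direction. Plaur, the urokinase receptor, which myeloid cells also make, had 32.6 (WT 1), 35.5 (WT 2), 6.04 (KO 1) and 1.54 FPKM (KO 2) (log2 fold change -3.05, standard error 0.51, adjusted p = 0.248 by limma), beside the lower macrophage and neutrophil markers given above, whose part was not tested. Plaur was the one gene of these lists that passed when either KO library was left out, at -3.78 without replicate 1 and -2.31 without replicate 2 (adjusted p = 0.000964 and 0.0365 by limma). Etv4 at 1.92, Egr3 at 2.69, Egr2 at 2.03 and Myc at 1.69 passed in limma without KO replicate 1 alone, where 15.8% of all tested genes did, with adjusted p from 0.0111 to 0.0169. Junb, the most abundant of the list, was level at 94.0 and 87.2 in WT, compared with 91.2 and 79.4 FPKM in KO.

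**Figure D5:**
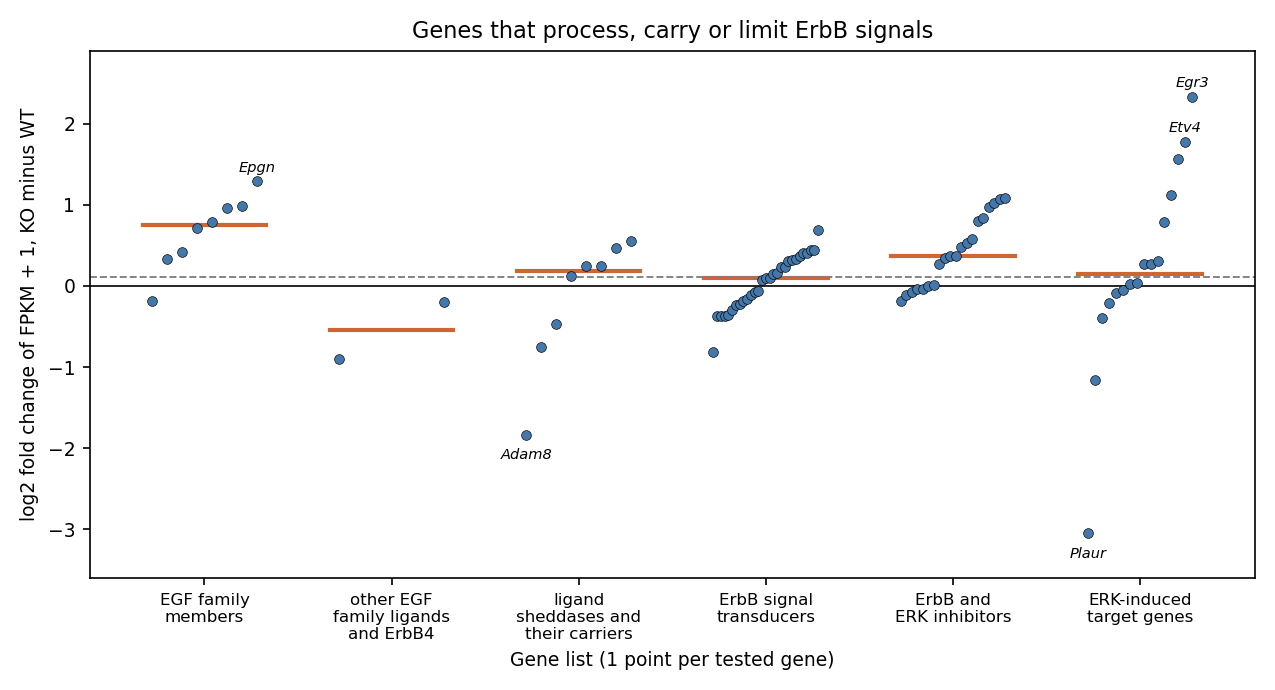
log2 fold change of FPKM + 1, KO minus WT, with 1 point per tested gene of each list, the median of each list in orange and the median of all tested genes (0.11) dashed. Of the 8 tested members 7 lie above 0 (Epgn among them, which entered only through the KO libraries), as do 58.6% of all tested genes, the transducers centre on the median of all genes, and the ERK-induced genes spread from Plaur at -3.05 to Egr3 at 2.33.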

How the data were processed

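Per the labels and the study's methods, the authors extracted RNA from BLM-treated skin, sequenced it in paired-end mode and aligned reads to mm9 with HISAT2 version 2.0.1. The submitters' processing notes also name StringTie version 2.0.6. The methods describe read counts and DESeq2, but the table that was deposited holds FPKM: 99.993% of its non-zero values are fractional. Which program made the FPKM values is not given in the sources used here. A count model was therefore not used.

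Values were transformed to log2(FPKM + 1) without rescaling and fitted by limma (version 3.58.1, under R version 4.3.3) on genotype alone, with a mean-variance trend, for the 13027 genes that reached 1 FPKM in 2 or more libraries. The study's threshold was used, an absolute log2 fold change above 1 at an adjusted p under 0.05. The fit was tested on simulated data. For a single gene, 2 libraries against 2 allow an exact two-sided permutation p of 0.333 at the smallest. Depth was estimated from the FPKM worth of 1 fragment in 2591 genes with a single coding transcript of at least 2 kb, and fragment numbers are approximate and cover counting error only. Exon overlaps came from the GENCODE annotation of mm9. Of 24441 gene names, 26 had been turned into dates.

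The members and lists were chosen with earlier results of these data known. Named genes were Gsdmd, the members, the other family genes, and of each further pathway list the 3 tested genes with the largest absolute log2 fold change and the gene with the highest mean, of which 1 gene is not reported here. Deviations of same-numbered libraries from their group means correlated at -0.20, and no source ties a number to a shared batch, so no pairing was assumed. Alternatives were other pseudocounts, filters, scalings and thresholds, no trend, leaving out each library and a replicate block. Chosen once the data had been seen were a crossed block and the scale of basal keratinocyte markers. Summaries used pandas version 2.3.3 under Python version 3.11.15.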

Additional observations from a re-analysis of the deposited data

How the results depend on the processing

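Over all genes, 0 passed in 12 of 14 alternatives, where the smallest adjusted p by limma ran from 0.0541 to 0.941 and 534 to 3052 genes had an unadjusted p under 0.05. The exceptions left out a KO library: without KO replicate 1, 2058 genes passed, and without KO replicate 2, 43 did, each against a lone KO library assumed to vary like the WT group. Leaving out 1 library gave 0 to 2058 genes over all, 0 to 1 members (Epgn, without KO replicate 1) and 0 to 9 genes of the pathway lists (Adam8, Lrig1, Lrig3, Socs5, Egr2, Egr3, Myc, Etv4 and Plaur without KO replicate 1, and 1, Plaur, without KO replicate 2). The replicate block gave 0 calls over all genes, 0 members and 0 list genes, and the crossed pairing 0, 0 and 0, so neither changed a call. The log2 fold changes of the 8 tested members kept their sign in all 104 values under alternatives, but only the scalings could have turned one. In these members the genotypes did not overlap, so leaving out a library or changing the pseudocount cannot turn a sign. The other filters, the blocks and the fit without a trend leave the fold change as it was. Sizes did move, as a pseudocount of 0.1 gave 1.68 for Ereg, 2.08 for Epgn and 0.50 for Areg. The count of 7 members with every KO library above every WT library was 6 under either scaling, where Areg dropped out. It was 1 relative to basal keratinocyte markers, a scale that lowers every gene in KO and leaves 2.43% of all genes in that order. Leaving out 1 library gave 7 to 9, but this can only keep or raise the count, so that range is no check on it. Shares of all genes were not counted under the scalings or with a library left out. Signs turned for Nrg4 (-0.99 to 0.59 leaving out 1 library, 0.33 without KO replicate 1), for Junb (-0.19 to 0.0098 leaving out 1 library, turning without KO replicate 2) and for Mapk3 (-0.050 with median-ratio and -0.0050 with upper-quartile scaling, -0.16 to 0.35 leaving out 1 library, turning without WT replicate 1 or KO replicate 1). The cause was not tested. Depth limits Nrg1, Btc, Areg and Epgn, with under 50 estimated fragments in 3 or 4 libraries.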

Other observations

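Lrig1, an ErbB inhibitor that marks stem cells of the upper hair follicle and sebaceous gland, was named after its values were seen. It had 10.4 and 15.1 FPKM in WT against 15.1 and 33.4 in KO, and KO replicate 2 alone stood well above the rest (log2 fold change 0.80, standard error 0.44, adjusted p = 0.383 by limma). The same library had the highest summed sebocyte markers, 1211 FPKM against 38.3 to 222.4 in the others, with Elovl3 at 297.5 FPKM against 4.64 to 58.3. Within the KO group the members divided by library. Epgn, Egfr and Nrg1, and by little Erbb2, were higher in KO replicate 2. Areg, Ereg, Tgfa and Erbb3, and by little Hbegf and Btc, were higher in KO replicate 1. That library had the highest hair follicle and melanocyte markers, and also the highest suprabasal, wound-induced keratin, fibroblast, Schwann cell, mast cell and T cell markers. Whether these markers account for any of the values was not tested.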
